A study of Mus musculus with 18 samples.

Results

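The miR-34 family was measured in Neuro2A cells, a mouse neuroblastoma line, that expressed the TATA-binding protein (TBP) fused to green fluorescent protein with either 59 or 16 glutamines in its polyglutamine tract. The members were all array entries named miR-34a, miR-34b or miR-34c with any strand suffix. This gave 5 of the 566 mouse miRNA entries on the array: miR-34a, miR-34b-5p, miR-34b-3p, miR-34c and miR-34c*. The 6 groups were 59Q-TBP and 16Q-TBP at 24 h, 59Q-TBP and 16Q-TBP at 36 h, and 59Q-TBP and 16Q-TBP at 60 h after nucleofection, with 3 biological replicates each and 1 single-colour Agilent array per sample (18 arrays). The cells derive from mouse strain A. Every group received a TBP construct, so no array of untransfected cells was analysed here, and the construct was added to cells that still carry their own Tbp gene. The labels call the replicates biological without saying whether they came from separate cultures, so p-values measure only the spread between these samples. A miRNA array has no probe for TBP, and the construct labels could not be checked against its level.

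The miR-34 genes are among the best known miRNA targets of p53, the transcription factor that responds to DNA damage and other stress. Mir34a has its own promoter, while Mir34b and Mir34c are cut from a single primary transcript. The mature 5p strands are known to lower proteins that drive the cell cycle and cell survival, such as cyclin-dependent kinases and Bcl2. In human neuroblastoma the chromosome region that holds miR-34a is often deleted. An expanded polyglutamine tract in TBP causes spinocerebellar ataxia type 17 in people. A comparison of 59Q-TBP with 16Q-TBP asks which miRNAs differ with the length of the tract.

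The family falls into a pair of seed groups, and these sequences are shown because the single entry that rose above background belongs to the smaller group. The seed, bases 2 to 8 of the mature strand, is in capitals. Sequences and positions are from RefSeq (GRCm38.p6), in which 4 of the 5 array entries were matched. The entry miR-34c, the 5p strand, is named only. The 5p strands of miR-34a (chr4:150068473-150068494, plus strand) and miR-34b (chr9:51103610-51103632, minus strand) share the seed GGCAGUG with miR-449a (chr13:113037549-113037570, plus strand) and miR-449c (chr13:113036008-113036028, plus strand). These 4 are the only ones of 1738 mature mouse miRNAs in the table with this seed. The table does not hold the 5p strand of miR-34c, so the count says nothing about that strand. The array entry miR-449b is not among the 4 either, and no sequence is shown for it.
miR-34a-5p: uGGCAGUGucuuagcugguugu
miR-34b-5p: aGGCAGUGuaauuagcugauugu
miR-449a-5p: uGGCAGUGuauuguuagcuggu
miR-449c-5p: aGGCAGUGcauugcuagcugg
The 3p strands of miR-34b (chr9:51103574-51103595, minus strand) and miR-34c (chr9:51103044-51103065, minus strand; miR-34c* on the array) share another seed, AUCACUA, which no other mature miRNA of the table carries. The 2 strands match at 17 of 22 positions.
miR-34b-3p: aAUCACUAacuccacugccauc
miR-34c-3p: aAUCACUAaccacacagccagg
The Mir34b hairpin (chr9:51103562-51103645, minus strand) is shown with both mature arms in capitals, since its arms were measured by separate probes that gave different results. The Mir34c hairpin lies 451 bases from it on the same strand.
Mir34b hairpin: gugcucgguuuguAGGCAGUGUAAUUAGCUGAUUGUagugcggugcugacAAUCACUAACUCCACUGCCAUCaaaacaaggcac

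The 4 members miR-34a, miR-34b-5p, miR-34c and miR-34c* were not well above background on any of the 18 arrays. An entry counted as detected on an array when at least 1 of its probes had the scanner software's well-above-background flag on at least 50% of its unflagged spots. For miR-34a the processed signal, a background-subtracted brightness in scanner units, lay between 2.05 and 3.78 over the 18 arrays, with a median of 2.63. For miR-34b-5p it lay between 2.15 and 3.78, with a median of 2.62. For miR-34c it lay between 2.11 and 3.79, with a median of 2.48. For miR-34c* it lay between 2.10 and 4.25, with a median of 2.88. The dimmest probe that was well above background on the same array was 2.48 to 5.09 times as bright as these members. Of their 1440 spots, 1340 (93.1%) held a surrogate value, which the software writes for a spot not above background, and 3 spots carried the flag. For comparison, 25 flags fell on the 384 negative control spots per array over all 18 arrays (0.362%). No spot of any mouse probe was saturated, and each member was printed in 20 spots per array. Absence of these miRNAs from the cells cannot be read from such values. They say that the level was below what the arrays measured, in all 6 groups, and 272 of the 566 entries (48.1%) shared that state.

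The groups could therefore not be told apart for miR-34a. Its processed signal at 24 h averaged 2.30 ± 0.22 with 59Q-TBP and 3.21 ± 0.65 with 16Q-TBP. At 36 h it averaged 2.71 ± 0.41 with 59Q-TBP and 2.95 ± 0.72 with 16Q-TBP, and at 60 h 3.0 ± 0.45 with 59Q-TBP and 3.12 ± 0.58 with 16Q-TBP (SD, n = 3 each). All of these values are below the detection limit of their arrays and have no order. After scaling, all 72 values of the 4 members were at the floor of the measurement, so no fold change is given for them.

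**Figure D1:**
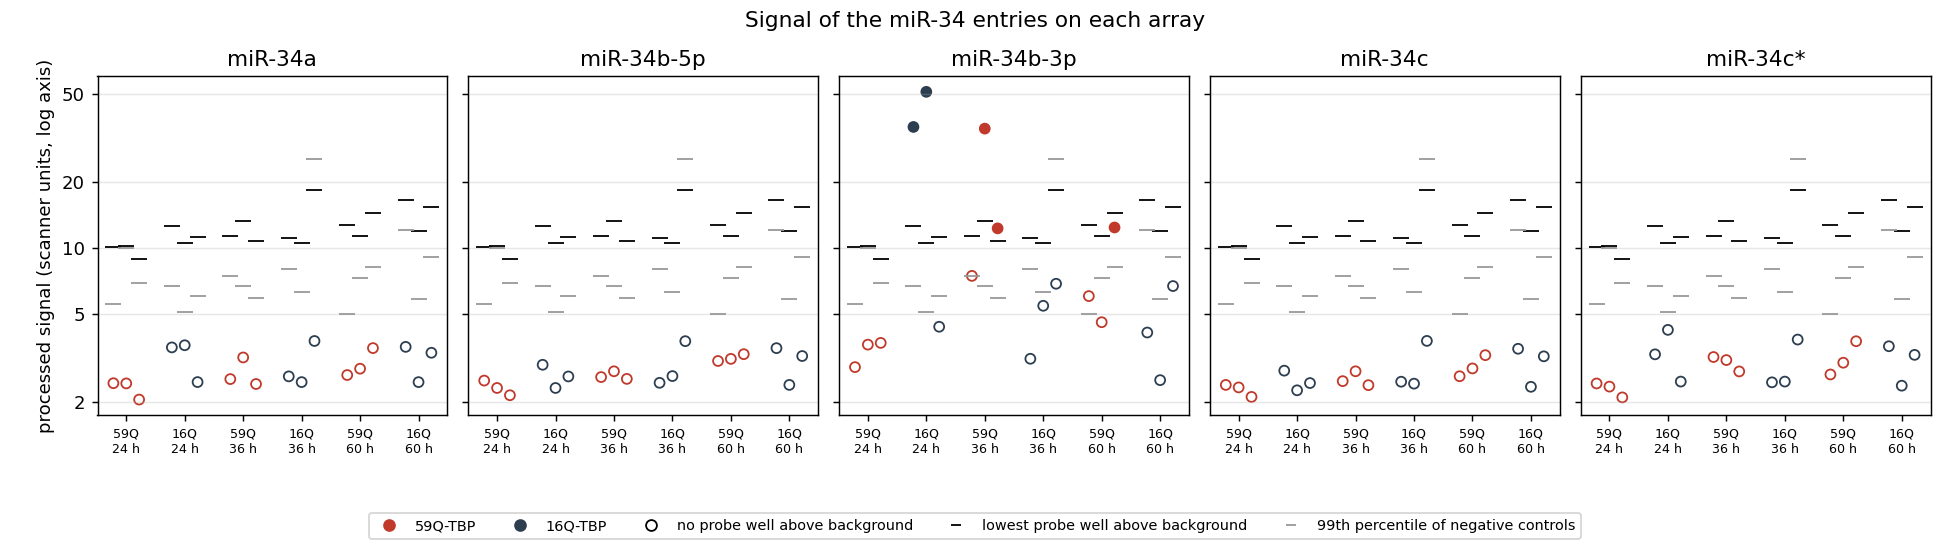
Processed signal of the 5 miR-34 entries (vertical axis, scanner units, log axis) on each of the 18 arrays, with 3 arrays per group in replicate order. Filled points had at least 1 probe well above background, black dashes mark the lowest probe well above background on that array and grey dashes the 99th percentile of the negative control spots. Only miR-34b-3p has filled points, 5 of 18, and the other 4 entries stay between 2.05 and 4.25.

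miR-34b-3p, the strand opposite to miR-34b-5p in the hairpin, was the member that rose above background. It was well above background on 5 of 18 arrays, 3 of them with all 4 of its probes. At 24 h its processed signal was 2.88, 3.64 and 3.71 on the 59Q-TBP arrays, against 35.4, 51.1 and 4.39 on the 16Q-TBP arrays (replicates 1, 2 and 3). At 36 h it was 7.47, 34.8 and 12.3 with 59Q-TBP, against 3.14, 5.47 and 6.88 with 16Q-TBP. At 60 h it was 6.05, 4.60 and 12.4 with 59Q-TBP, against 4.13, 2.51 and 6.72 with 16Q-TBP. Signal was thus high on 2 of 3 arrays with 16Q-TBP at 24 h and on 1 of 3 with 59Q-TBP at 36 h. Those arrays stood beside replicates of their own group that were at or just above background. The 2 other arrays with a detected probe were replicate 3 of 59Q-TBP at 36 h, with 3 probes, and replicate 3 of 59Q-TBP at 60 h, with 1 probe.

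The 4 probes of miR-34b-3p moved together. On the 16Q-TBP arrays at 24 h they read 28.1 to 44.4 in replicate 1 and 41.1 to 66.3 in replicate 2. In replicate 3 of that group they read 3.21 to 6.36. On replicate 2 of 59Q-TBP at 36 h they read 30.3 to 40.1. Each of these arrays had all 4 probes on the same side of its own background limit, so the spread within a group lay between arrays and not between probes. Replicate 3 of 59Q-TBP at 36 h had probes between 9.71 and 13.7, which straddled the limit of 10.8 on that array. All 4 probes together gave 80 flagged spots of 360, against 102 surrogate spots.

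**Figure D2:**
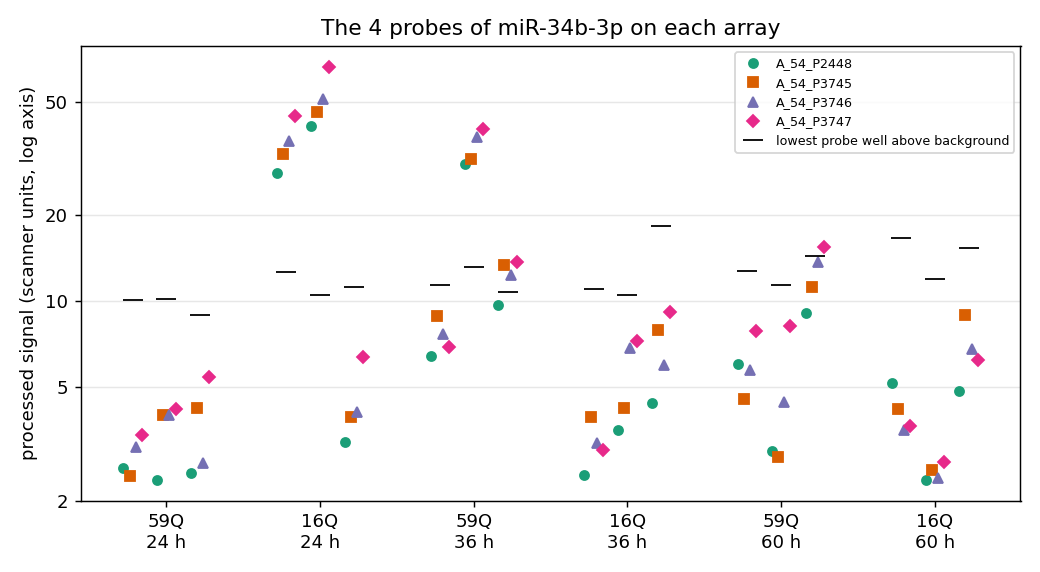
Processed signal of each of the 4 probes of miR-34b-3p (vertical axis, scanner units, log axis) on the 18 arrays, grouped by construct and time. Black dashes mark the lowest probe well above background on that array. On 3 arrays, replicates 1 and 2 of 16Q-TBP at 24 h and replicate 2 of 59Q-TBP at 36 h, all 4 probes lie above the dash, from 28.1 to 66.3.

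In order of mean processed signal the groups were 16Q-TBP at 24 h with 30.3 ± 23.8, 59Q-TBP at 36 h with 18.2 ± 14.6, 59Q-TBP at 60 h with 7.68 ± 4.14, 16Q-TBP at 36 h with 5.16 ± 1.89, 16Q-TBP at 60 h with 4.45 ± 2.12 and 59Q-TBP at 24 h with 3.41 ± 0.46 (SD, n = 3 each). Each neighbouring pair in this order overlapped in its replicate values. In both of the higher groups the SD was close to the mean. These signals are not scaled between arrays, so the tests used log2 of the signal after division by each array's 75th percentile. A floor of -4.11, the median limit of detection on that scale, replaced lower values, and 14 of the 18 values of miR-34b-3p were at it.

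On the scaled log2 level miR-34b-3p averaged -4.11 with 59Q-TBP and -3.32 ± 0.71 with 16Q-TBP at 24 h (SD, n = 3 each). The difference, 59Q minus 16Q, was -0.78, and the exact two-sided permutation test gave p = 0.4 (Benjamini-Hochberg adjusted p = 0.64 over 8 comparisons). At 36 h the level averaged -3.73 ± 0.63 with 59Q-TBP and -4.11 with 16Q-TBP, a difference of 0.38 with the same exact p of 0.4. At 60 h every array of both constructs was at the floor, and the exact permutation p was 1. Averaged over the times the difference was -0.13, with an exact permutation p of 0.7 (adjusted p = 0.933). With this processing the difference thus had opposite signs at 24 h and 36 h, each carried by 1 or 2 arrays of 3. Neither passed the permutation test, and with another background correction the 36 h difference was negative too, as given below. At 24 h the difference of -0.78 is about as large as the SD of 0.71 between the 16Q-TBP replicates. Without replicate 2 of 59Q-TBP the difference at 36 h was 0.01. With 3 arrays against 3 the permutation test cannot give a p below 0.1.

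Time within a construct gave the same picture for miR-34b-3p. With 16Q-TBP both 36 h and 60 h differed from 24 h by -0.78 in scaled log2 level (exact permutation p = 0.4 for each). With 59Q-TBP it was 0.38 higher at 36 h than at 24 h (exact permutation p = 0.4) and at the floor at both 60 h and 24 h (p = 1). These time comparisons share their 24 h arrays with each other and with the comparison of constructs at 24 h. No fold is given for these differences. At 24 h the mean of the 16Q-TBP arrays, of which 2 of 3 had the miRNA detected, was set against a limit. The limit was the lowest signal well above background on the 59Q-TBP arrays. This gave a bound of 1.23-fold. Without replicate 1 or 2 of 16Q-TBP it was 0.968 or 0.833, and without replicate 3, where the miRNA was not detected, it was 2.32. In no other comparison did the bound exceed 1.

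None of the 5 members passed the filter for the limma fit, which asks for a probe that was flagged on each of the 3 arrays in some group and kept 226 entries. A limma fit over all 566 entries without this filter gave the members a second test. There miR-34b-3p differed by -0.78 between 59Q-TBP and 16Q-TBP at 24 h, with a 95% interval from -1.46 to -0.10 (limma, adjusted p = 0.523, unadjusted 0.0281). At that comparison 0% of all entries passed an adjusted p of 0.05, and 52 had an unadjusted p below it. At 36 h the interval of the limma difference ran from -0.30 to 1.06 (adjusted p = 1). For 60 h minus 24 h with 16Q-TBP the adjusted limma p was 0.175, where 4.77% of all entries passed. The dependence of the construct difference on time had an F test p of 0.0606 and an adjusted p of 0.562 (limma). No member passed in any comparison of this fit, in which 0.177% of entries passed between the constructs at 36 h and on average and 0% at 60 h. Over time 0.177% passed for 36 h minus 24 h in either construct and 0.353% for 60 h minus 24 h with 59Q-TBP. The other 4 members differed by 0 throughout because all their values were at the floor, which is no evidence of equal levels. The limma intervals are set by spread pooled over 6 groups, of which 4 had every miR-34b-3p value at the floor. In the 2 groups with signal the SD was 0.71 and 0.63.

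The arrays on which miR-34b-3p was bright are arrays that stood apart from the rest. By the median of its correlations with the others, 4 arrays lay lowest, at 0.759 to 0.801, against 0.834 to 0.929 for the other 14. They were replicates 1 and 2 of 16Q-TBP at 24 h, replicate 2 of 59Q-TBP at 36 h and replicate 1 of 59Q-TBP at 60 h. The first 3 of them are the 3 brightest arrays for miR-34b-3p, and on the last it was not detected. Of the 226 entries in the fit, 29 (12.8%) had the same 3 arrays as their highest, and another 29 (12.8%) had them as their lowest. In the deposited log2 table, which is not scaled between arrays, these counts were 29 and 0. Leaving out the 4 arrays takes away these 3, so the difference in miR-34b-3p between 59Q-TBP and 16Q-TBP was then bound to be small. It was 0 at 24 h, with 1 array of 16Q-TBP left, and 0.01 at 36 h. All 6 arrays of 24 h lay on 1 slide, so the 24 h difference is also a within-slide value. Within the slide that held 3 arrays of 59Q-TBP and 1 of 16Q-TBP at 36 h, the difference was 0.38. What set these arrays apart, and its part in the signal of miR-34b-3p, was not tested.

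The entries most like miR-34b-3p over the 18 arrays were miR-18a*, miR-346 and miR-294. Their Pearson correlations with it were 0.91, 0.90 and 0.89 on the scaled log2 level, against a median of -0.41 and a range of -0.83 to 0.91 over the 226 entries. In the deposited log2 values the correlations were 0.939, 0.946 and 0.948, where let-7b* and miR-615-3p had higher ones of 0.951 and 0.959. Which 3 entries were most like it thus depended on the scale. The points share arrays, and many of them are at the floor, so these are descriptions. On the 3 bright arrays, in the order replicates 1 and 2 of 16Q-TBP at 24 h and replicate 2 of 59Q-TBP at 36 h, miR-346 had levels of -1.94, -1.32 and -1.80. On replicate 3 of 16Q-TBP at 24 h, miR-346 was at -4.05, and on all 3 arrays of 59Q-TBP at 24 h it was at -4.11. miR-294, known from mouse embryonic stem cells, had -2.08, -2.34 and -2.19 on the same 3 arrays and -4.07 on replicate 3 of 16Q-TBP at 24 h. miR-18a*, the passenger strand of a miR-17-92 cluster member, had -3.39, -3.43 and -3.33, against -3.97 on that replicate. All 3 were thus high on the same arrays as miR-34b-3p, and this likeness was measured after its values had been seen.

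**Figure D3:**
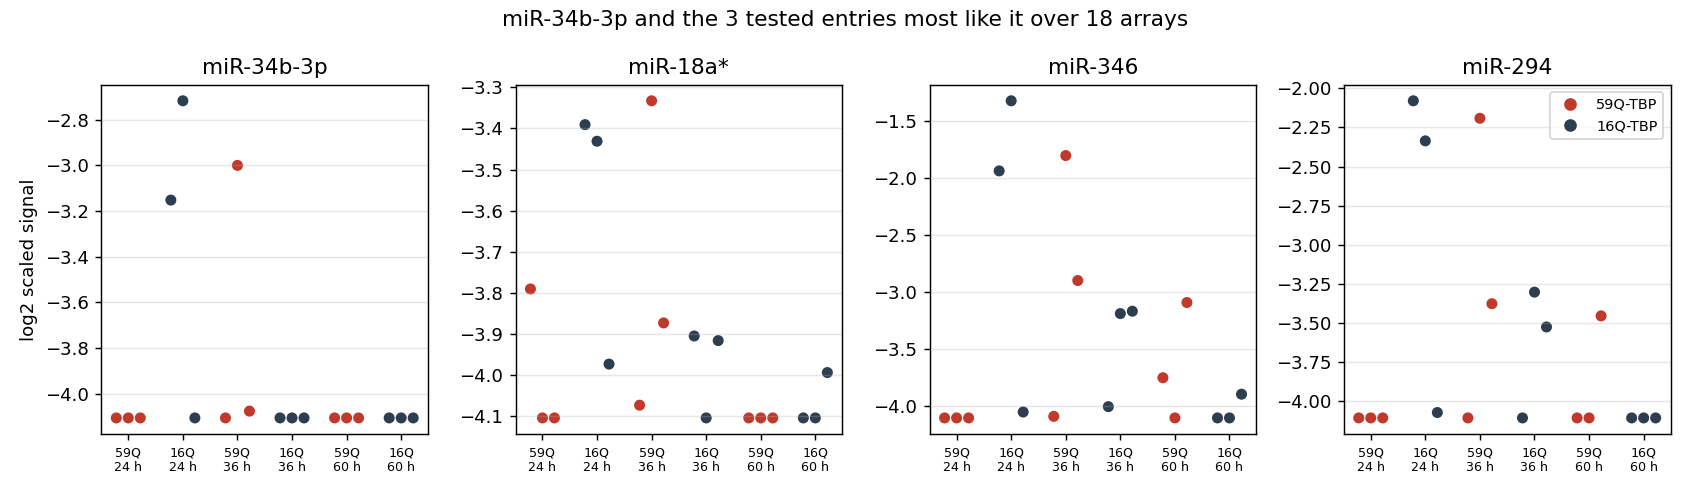
Scaled log2 signal (vertical axis, a separate range per panel) of miR-34b-3p and of the 3 entries with the highest Pearson correlation with it, on 18 arrays in 6 groups of 3. In all 4 panels the highest 3 points are replicates 1 and 2 of 16Q-TBP at 24 h and replicate 2 of 59Q-TBP at 36 h, and -4.11 is the floor.

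The miR-449 entries, taken as seed relatives of the family, gave no signal either. miR-449a, miR-449b and miR-449c, which are known from ciliated epithelium, were each well above background on 0 of 18 arrays. The cells' identity was checked on neuronal miRNAs. miR-138 was detected on 18 arrays, miR-132 on 10, miR-128 on 6, miR-137 on 3, miR-124 on 1 and miR-9 on 0. The markers of neurons were therefore present in part, and the defining pair miR-124 and miR-9 was at or near background. Markers of liver, blood and epithelium were detected on 0 of 18 arrays, and of the muscle markers miR-206 was detected on 8 and miR-1 and miR-133a on 0.

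Other miRNAs linked to p53 were counted from a list of 24, of which 22 were on the array (miR-605 and miR-149* were not) and 15 entered the limma fit. On all 18 arrays, 11 were well above background, and 6 were on none. Among those whose transcription p53 is known to raise, miR-192, miR-194, miR-215, miR-200c and miR-141 were on no array, while miR-107 and miR-22 were on all 18. miR-143 was on 16. Its cluster partner miR-145 was on 10, but none of its probes passed the filter for the fit. Of the miRNAs described as directed at the p53 transcript, miR-125b-5p and miR-30d were on all 18, miR-25 on 17 and miR-504 on none. The undetected state of 4 miR-34 members was therefore shared by some p53-linked miRNAs and not by others.

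Between 59Q-TBP and 16Q-TBP, 0 of the 15 passed at 24 h, 36 h, 60 h or on average, where 0.442% of all entries passed in each (limma, adjusted p under 0.05). The counts at an unadjusted p under 0.05 were 1, 7, 0 and 0 of the 15, beside 46, 35, 1 and 2 of all 226 entries. The median difference of the 15 at 24 h was 0.18, beside 0.25 over all 226 entries, and 12 of the 15 lay above 0, beside 172 of 226. At 36 h it was -0.73, beside -0.19 over all entries, and 1 of the 15 lay above 0, beside 80 of 226. At 60 h it was 0.22, beside 0.06, and 11 of the 15 lay above 0, beside 127 of 226. On average over the times it was -0.13, beside -0.004, and 2 of the 15 lay above 0, beside 110 of 226. The list thus had the sign of most entries at each time. At 36 h and on average a larger share of the list than of all entries lay below 0.

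At 24 h the entry of the list with an unadjusted p under 0.05 was miR-206, a muscle miRNA whose processing p53 is known to promote. It was at the floor of -4.11 on all 3 arrays with 59Q-TBP, against -2.38, -2.50 and -4.11 with 16Q-TBP, and the difference was -1.11 (SE 0.44, limma adjusted p = 0.192). It was thus above the floor on the same 2 of the 6 arrays as miR-34b-3p. Its 2 companions among muscle markers, miR-1 and miR-133a, were undetected. The other leading entries of each role differed by 0.52 for miR-22, 0.17 for miR-107, 0.49 for miR-16, 0.25 for miR-92a, 0.31 for miR-19b, 0.44 for miR-30d and 0.19 for miR-25, and the smallest adjusted limma p among them was 0.340. At 60 h the leading entries differed by 0.40 for miR-25, 0.24 for miR-125b-5p, 0.25 for miR-143, 0.22 for miR-16, 0.30 for miR-17, 0.33 for miR-20a and -0.17 for miR-22, each with an adjusted limma p of 0.947. Apart from miR-206 these differences were mostly positive, and none passed the test.

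At 36 h the entries with the largest statistics in each role were the following, none past the threshold. For miR-107, a p53-raised miRNA, the levels were -0.71, -1.83 and -1.29 with 59Q-TBP, against -0.64, -0.56 and -0.44 with 16Q-TBP, and the difference was -0.73 (SE 0.31, limma adjusted p = 0.266). All 3 of its 59Q-TBP values were below the lowest 16Q-TBP value, and replicate 2, an array that stood apart, was the lowest. miR-16, whose processing p53 is known to promote, had 0.36, -0.81 and -0.28 with 59Q-TBP, against 0.81, 0.82 and 0.97 with 16Q-TBP, a difference of -1.11 (SE 0.40, limma adjusted p = 0.235). Among members of the miR-17-92 cluster, which p53 represses, miR-20a differed by -1.39 (SE 0.57, limma adjusted p = 0.256) and miR-18a by -0.73 (SE 0.32, limma adjusted p = 0.266). The p53-raised miR-143 differed by -0.46 (SE 0.32, limma adjusted p = 0.518). Among miRNAs directed at the p53 transcript, miR-25 differed by -1.15 (SE 0.46) and miR-30d by -0.78 (SE 0.31), with an adjusted p of 0.256 for each (limma). The miRNA of the 15 with a positive difference at 36 h was miR-206, with 0.49 (SE 0.44, limma adjusted p = 0.646). Its levels were -4.11, -2.34 and -3.19 with 59Q-TBP, against -4.11, -3.33 and -3.68 with 16Q-TBP. The same replicate 2 that stood apart was thus the highest of its group for miR-206. It was well above background on all 3 arrays only in 59Q-TBP at 36 h. It thus entered the fit through the group where it was higher, and the filter favoured a positive sign for it at 36 h. The other 14, in every role, had negative differences, as did most of all 226 entries. For each of the 7 of them named here, the same replicate 2 of 59Q-TBP had the lowest level of its group. Without that array 0 of the 15 passed at 36 h, as with it. The number of all 226 entries at an unadjusted limma p under 0.05 was 12 without it, against 35 with it. Leaving out another 36 h array gave 59 (replicate 1) or 19 (replicate 3) for 59Q-TBP. For 16Q-TBP it gave 17, 30 or 22 (replicates 1, 2 and 3).

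**Figure D4:**
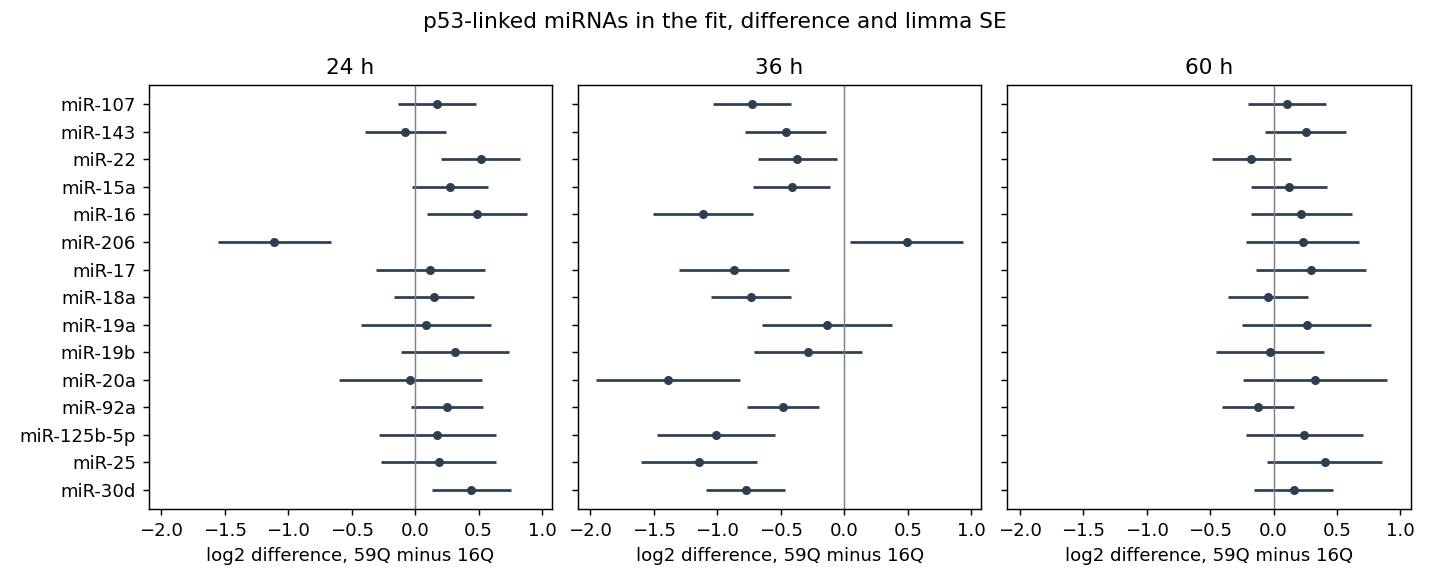
Log2 differences, 59Q minus 16Q, of the 15 p53-linked miRNAs in the limma fit at 24, 36 and 60 h (horizontal axis). Points are differences of group means over 3 arrays each and bars are the limma standard error. Right of 0 lie 12 of 15 points at 24 h, 1 at 36 h and 11 at 60 h, beside 172, 80 and 127 of all 226 entries, and none of the 15 passed the threshold.

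Over time, 2 of the 15 passed between 60 h and 24 h in cells with 16Q-TBP, where 35.4% of all entries passed (25.2% higher and 10.2% lower). miR-25, which targets the p53 transcript in human cells, had levels of -3.35, -3.53 and -3.26 at 60 h, against -2.32, -2.11 and -1.65 at 24 h. The groups did not overlap, and it fell by 1.35 on the log2 scale (difference -1.35, SE 0.46, limma adjusted p = 0.0321). miR-22, a p53-raised miRNA, had 1.35, 1.69 and 1.60 at 60 h, against 0.10, 0.66 and 1.42 at 24 h. Its groups overlapped, and its difference was 0.82 (SE 0.31, limma adjusted p = 0.0498). Neither passed with the slide as a block, where the adjusted limma p was 0.126 for miR-25 and 0.216 for miR-22. Without the 4 arrays that stood apart, 3 arrays of 60 h met 1 array of 24 h, which is assumed to vary like the other groups. The limma difference was then -1.73 for miR-25 (adjusted p = 0.0315) and 0.13 for miR-22 (adjusted p = 0.841), and without scaling between arrays that of miR-22 was -0.10. All 24 h arrays of this construct lay on slide 1 and all 60 h arrays on slide 2, so no slide held both times of this construct. Leaving out any 1 of the 6 arrays compared took the adjusted limma p of miR-25 to between 0.055 and 0.104. For miR-22 it lay between 0.0802 and 0.253 in 5 of these 6 cases, and it was 0.00467 without replicate 3 of 24 h. In cells with 59Q-TBP 0 of the 15 passed between 60 h and 24 h, where 1.33% of all entries passed, and 0 passed between 36 h and 24 h in either construct, where 0% did. These counts with 59Q-TBP depended on single arrays. For 36 h minus 24 h, 9 of the 15 passed without replicate 1 of 59Q-TBP at 36 h (63 of all 226), 4 without replicate 1 of 59Q-TBP at 60 h (32 of 226) and 1 without the 4 arrays that stood apart (13 of 226). For 60 h minus 24 h, 3 passed without those 4 arrays (43 of 226) and 1 without replicate 1 of 59Q-TBP at 60 h (18 of 226).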

How the data were processed

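Total RNA of 18 samples was hybridised to 1-colour (Cy3) Agilent mouse miRNA arrays, per the labels. Per the file headers, the deposited intensity of each spot came from Agilent Feature Extraction 9.5.1.1 with background subtraction, detrending and surrogates, beside other columns of 0 or 1 flags. The deposited series table holds log2 values, which equal log2 of each spot's net signal without scaling or centring. It was used as an alternative.

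Processed signal was averaged over each probe's unflagged spots, scaled to the array's 75th percentile (290 probes flagged on every array), floored at 0.0581 and taken to log2. An entry in the fit is the mean of those probes flagged on each of the 3 arrays in some group. miR-34b-3p is the mean of its 4 probes. Its floor leaves values below it without order. limma 3.58.1 in R 4.3.3 fitted 6 group means (12 residual degrees of freedom) over 226 entries with Benjamini-Hochberg adjustment at 0.05, and was tested on simulated data. As no miR-34 entry passed the filter, the members' tests are the exact permutation of labels over arrays and the unfiltered fit of 566 entries.

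The members and lists were chosen with earlier results of these data known. All miR-34 entries were named, every entry of the p53 list was counted, and those named with values were, per role, the 2 with the largest limma statistic in a construct comparison described, and those past the threshold. The rule for likeness was the 3 highest Pearson correlations. Alternatives covered background correction, scaling, floor, filter, probe summary, slide, replicate block and arrays left out. Depth does not apply to arrays, and their number limits the precision.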

Additional observations from a re-analysis of the deposited data

How the results depend on the processing

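Limits: most miR-34 values are at the floor, so the processing decides what small differences exist. Detection depended on its definition, chosen after seeing the data. Where 1 flagged spot was enough, the number of arrays was 1 for miR-34a, 8 for miR-34b-3p, 1 for miR-34b-5p and 1 for miR-34c, where every probe had to be flagged it was 3 for miR-34b-3p, and above the 99th percentile of negative controls it was 10 for miR-34b-3p and 1 for miR-34c*. The other detection counts did not change.

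For miR-34b-3p, a floor 4 times higher lies above the scaled level of each of its probes on every array, so its differences were then bound to be 0. Leaving out the 4 arrays that stood apart (which hold its 3 brightest) made the differences at 24 h between constructs, and from 24 h with 16Q-TBP, 0. Normexp background correction gave -0.29 at 36 h, -0.33 at 60 h and -0.13 for 60 h minus 24 h with 59Q-TBP. No scaling gave 0.0603 at 60 h and 0.0603 for 60 h minus 24 h with 59Q-TBP, where the deposited values gave 0.131 and 0.47. Leaving out 1 array each gave -1.17 to -0.48 at 24 h and for both time differences with 16Q-TBP, 0.01 to 0.57 at 36 h and for 36 h minus 24 h with 59Q-TBP, 0 at 60 h and for 60 h minus 24 h with 59Q-TBP, and -0.26 to -0.03 on average. The stricter filter leaves the members out.

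Replicate numbers are shared by the groups. At 24, 36 and 60 h, the deviations of same-numbered arrays of both constructs correlated at -0.30, 0.36 and -0.19 for replicate 1. The values were 0.38, 0.67 and 0.63 for replicate 2, and -0.30, -0.51 and -0.18 for replicate 3. With 3 arrays per group, these correlations cannot tell whether same-numbered samples were paired. The replicate block left the miR-34b-3p differences unchanged, gave 68 calls for 60 h minus 24 h with 16Q-TBP in place of 80, and 1 p53-linked call in place of 2.

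Counts over all entries moved as follows. For 60 h minus 24 h with 16Q-TBP (80) they were 3 with normexp, 41 without scaling, 5 in the deposited table, 26 with the higher floor, 27 without the filter, 0 with the slide as a block (at unadjusted p under 0.05 62) and 4 without the 4 arrays. With the slide as a block the counts were 49 at 60 h, 2 on average, 1 for 60 h minus 24 h with 59Q-TBP and 55 for the dependence on time. Without the filter they were 0 at 24 h, 0 at 60 h, 1 for 36 h minus 24 h with 16Q-TBP and 1 with 59Q-TBP. With the higher floor they were 2 at 36 h, 1 for 36 h minus 24 h with 16Q-TBP, 2 with 59Q-TBP and 1 for the dependence on time. On the compared arrays alone they were 2 at 36 h, 0 at 60 h and 0 for 60 h minus 24 h with 59Q-TBP, which with normexp was 0 and without scaling 1. Normexp and the deposited table gave 0 at 60 h. Without the 4 arrays they were 13 for 36 h and 43 for 60 h minus 24 h with 59Q-TBP. Leaving out 1 array each gave 1 to 50 at 24 h, 1 to 10 at 36 h, 0 to 1 at 60 h, 1 to 1 on average, 0 to 8 and 6 to 99 for 36 h and 60 h minus 24 h with 16Q-TBP, 0 to 63 and 1 to 18 with 59Q-TBP, and 0 to 30 for the dependence on time.

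Of the 15 p53-linked entries, 1 passed at 60 h with the slide as a block, beside 49 of all 226. For 60 h minus 24 h with 16Q-TBP, 0 passed with normexp, the deposited table, the higher floor, no filter, the brightest probe and the slide as a block, and 1 passed with quantile normalization, no scaling, the stricter filter, the 4 arrays left out and the compared arrays alone. Over all entries there, 82 of 226 passed with quantile normalization, 73 with the brightest probe, 98 on the compared arrays alone and 58 of 131 with the stricter filter. Leaving out 1 array each gave 0 to 2 of the 15 for that comparison, beside 6 to 99 of all 226. At 24 h it gave 0 to 2, and the 2 came without replicate 3 of 16Q-TBP at 24 h, where 50 of all 226 passed. At 36 h it gave 0 to 1, and the 1 came without replicate 1 of 59Q-TBP at 60 h, where 10 of all 226 passed. At 60 h and on average it gave 0 to 0. miR-25 passed in 18 of 30 alternatives (difference -2.05 to -0.28, limma adjusted p 0.00359 to 0.618). These include leaving out any array of the groups not compared, which cannot change the difference of -1.35 and passed each time. Leaving out a compared array never passed for miR-25. miR-22 passed in 6 of 31 (difference -0.10 to 1.17, limma adjusted p 0.00467 to 0.899), and it was -0.06 in the deposited table. The causes were not tested.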
